A study of Rattus norvegicus with 12 samples.

Results

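Progesterone was compared with its oil vehicle in the uterus of Brown Norway (BN) rats. The comparison used 6 of the 12 libraries in the series, 3 from progesterone-treated rats (BN-P4) and 3 from oil-treated rats (BN-Oil), and 15697 of 26312 listed genes had enough reads to be tested. All rats were ovariectomised females, 10 weeks old, that had rested for 2 weeks. BN-P4 rats were given 40 µg of progesterone per g subcutaneously for 9 h, and BN-Oil rats were given the sesame oil vehicle. BN is an inbred strain. The remaining 6 libraries come from Holtzman Sprague Dawley (HSD) rats, an outbred stock, treated in the same ways. They enter the fit, where all 12 libraries share one estimate of the spread, and otherwise serve as a comparison. The samples are whole uterus, so epithelium, stroma, muscle, vessels and blood are measured together, and a smaller number of cells of a type and less RNA per cell cannot be told apart. The labels do not say whether each library is a separate animal, so p-values measure the spread between these libraries.

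Progesterone is a steroid that enters cells and binds a nuclear receptor, Pgr, which then acts on chromatin as a transcription factor. The receptor is present in the epithelium, the stroma and the muscle of the uterus. Progesterone opposes the growth that estrogen causes in the epithelium and prepares the organ for the attachment of the embryo. Ovariectomy removes the main source of both hormones, so that the hormone is given against a low background.

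Sequencing gave 15241366 to 19033254 gene reads per library in BN-P4 and 11763894 to 15535279 in BN-Oil, and 3 reads correspond to 0.158 to 0.197 CPM (reads scaled to a common library size) in BN-P4 and 0.193 to 0.255 CPM in BN-Oil. Intron reads were 23.2 ± 0.852% of gene reads in BN-P4 and 23.7 ± 1.05% in BN-Oil (SD, n = 3 each; exact permutation test, two-sided, p = 0.6, smallest possible p = 0.1). Transcripts of the mitochondrial genome took 4.76 ± 0.475% of reads in BN-P4 and 4.72 ± 0.39% in BN-Oil (exact permutation test, p = 1). Markers of the labelled tissue were present in all 6 libraries: in RPKM, which corrects for exon length and depth, the epithelial gene Epcam lay between 118 and 189, the stromal gene Dcn between 1079 and 1288, the smooth muscle gene Myh11 between 715 and 1413, and the receptors Pgr and Esr1 between 16.8 and 22.7 and between 29 and 42.9. Krt5, a keratin of squamous epithelium, stayed at or below 0.0441 RPKM and Cyp11a1, a steroid-making enzyme of the ovary, at or below 0.0888 RPKM. Fshr, the ovarian receptor for follicle-stimulating hormone, had no exon reads in a BN library but 0.174 to 0.655 CPM of intron reads. Star, a cholesterol carrier of steroid-making cells, and Lhcgr, the receptor for luteinising hormone, lay between 2.10 and 2.79 RPKM and between 1.55 and 2.69 RPKM. Summed over 7 ovary markers tested, the level was 33, 34.4 and 30.8 CPM in BN-P4, against 37.3, 33.2 and 32.8 CPM in BN-Oil. The labels give no batch, so treatment and any batch that followed it cannot be told apart.

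After 9 h of progesterone, 4045 genes changed in gene reads, which is 25.8% of those tested, at an adjusted p below 0.05 in edgeR's quasi-likelihood test with Benjamini-Hochberg adjustment. Of these, 2196 rose (14% of tested genes) and 1849 fell (11.8%). These 2 shares are the background for the counts of gene groups below. The BN-P4 and BN-Oil libraries did not overlap in 4027 of the 4045 called genes. A lack of overlap in a called gene therefore adds little to the call. Changes of at least 2-fold were seen for 498 genes that rose and 478 that fell, together 6.22% of tested genes, and the median size of a called change was 0.65 on the log2 scale. At least 4-fold changes were seen for 123 that rose and 84 that fell. Scaling the libraries by their upper quartile instead gave 1759 genes that rose and 2251 that fell, so the balance between rises and falls depended on the scaling, although it moved the median of all genes only to -0.07. Without BN-Oil replicate 3, 2606 genes were called, and with the 6 BN libraries fitted alone 5570.

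The largest rises included genes for secreted peptides, transporters and proteases. Slc5a5, the sodium-iodide symporter (chr16:20154958-20164944, Rnor_5.0, the build of all gene coordinates here), had 72.2, 118 and 90.9 CPM in BN-P4, against 0.192, 0.141 and 0.0819 CPM in BN-Oil, where the oil values stand for at most 3 reads per library. Orm1, a lipocalin of the acute-phase response, had 443, 542 and 453 CPM in BN-P4, against 0.959, 1.41 and 0.328 CPM in BN-Oil (log2 fold change 9.01 ± 0.28, adjusted p = 1.1e-09). Calca, which encodes calcitonin and calcitonin gene-related peptide (chr1:191158063-191162954), had 2524, 2766 and 2384 CPM in BN-P4, against 7.23, 14.8 and 9.67 CPM in BN-Oil (log2 fold change 7.92 ± 0.60, adjusted p = 3.7e-06). No progesterone library came near the oil range in any of these 3 genes, and much of the signal came from introns, which held 74.4% of the Calca reads and 52.9% of the Slc5a5 reads. Spns3, a member of the Spns family of lipid transporters, had 909, 1148 and 964 CPM in BN-P4, against 4.86, 7.45 and 3.6 CPM in BN-Oil (log2 fold change 7.56 ± 0.31, adjusted p = 2.1e-08), with 90.5% of its reads in introns. Lefty1, an extracellular inhibitor of Nodal signalling (chr13:104212318-104215251), had 41.5, 114 and 56.8 CPM in BN-P4, against 0.384, 0.211 and 0.246 CPM in BN-Oil (log2 fold change 7.92 ± 0.59, adjusted p = 3.4e-06), with BN-P4 replicate 2 the highest of its group.

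Other large rises started from a few CPM or less. Pla2g3, a secreted phospholipase A2, had 14, 38.5 and 29.6 CPM in BN-P4, against 0.32, 0.422 and 0.0819 CPM in BN-Oil (log2 fold change 6.55 ± 0.58, adjusted p = 1.0e-05). Scgb1c1, a secretoglobin, had 26.3, 38.3 and 24.1 CPM in BN-P4, against 0.575, 0.492 and 0.328 CPM in BN-Oil (log2 fold change 5.94 ± 0.53, adjusted p = 1.2e-05). Both were far above oil in every progesterone library. Mmp7, a metalloprotease made by epithelia, had 45.4, 46.5 and 68.9 CPM in BN-P4, against 1.41, 5.49 and 1.23 CPM in BN-Oil. Mmp20, a metalloprotease best known from tooth enamel, had 15.5, 20.4 and 20.3 CPM in BN-P4, against 0.256, 0.703 and 0.164 CPM in BN-Oil. Their log2 fold changes were 4.30 ± 0.57 (adjusted p = 0.0002) and 5.60 ± 0.49 (adjusted p = 1.0e-05). Gal, described below, and Serpina11, Frem3, Gpr165 and Adm2 were also among the 15 largest rises, the last 4 with log2 fold changes of 5.21, 4.34, 4.26 and 4.13. The BN-P4 and BN-Oil libraries did not overlap in any of the 15 genes, which was a condition of their choice.

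Counted in CPM rather than in fold, the largest gains after Calca were in Ctsd and Fth1, among genes with at least 50% of reads placed uniquely and no overlap between the groups. Ctsd, the lysosomal protease cathepsin D, had 2138, 2743 and 2336 CPM in BN-P4, against 371, 309 and 319.9 CPM in BN-Oil (log2 fold change 2.85 ± 0.13, adjusted p = 8.1e-08). Fth1, the heavy chain of the iron store ferritin, had 2448, 2817 and 2515 CPM in BN-P4, against 716, 838 and 692 CPM in BN-Oil (log2 fold change 1.79 ± 0.13, adjusted p = 3.5e-06), with 61.8% of its reads placed uniquely. The 5 genes with the largest such gain, Calca, Ctsd, Fth1, Spns3 and the chaperone Hsp90b1, together held 9932 CPM in BN-P4 and 1664 CPM in BN-Oil. By the same conditions the largest losses after Eef2, described with translation, were in Srrm2, a splicing factor (1156 ± 146 CPM in BN-P4 and 1638 ± 88.6 CPM in BN-Oil; SD, n = 3 each), and Txnip, an inhibitor of thioredoxin (591 ± 117 CPM in BN-P4 and 1139.8 ± 175 CPM in BN-Oil). Itm2b, a membrane protein, and RGD1566344 followed, with log2 fold changes of -0.69 and -0.65.

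The largest falls included a Wnt inhibitor, an anion exchanger and an immunoglobulin receptor. WIF1, a secreted protein that binds and blocks Wnt ligands (chr7:63077688-63147645), had 3.07, 2.89 and 2.95 CPM in BN-P4, against 63.9, 67.8 and 76.4 CPM in BN-Oil (log2 fold change -4.54 ± 0.45, adjusted p = 2.5e-05). Slc26a4, the anion exchanger pendrin, had 15.7, 16.5 and 18.1 CPM in BN-P4, against 140.0, 196 and 172 CPM in BN-Oil (log2 fold change -3.34 ± 0.16, adjusted p = 1.0e-07). Pigr, the receptor that carries IgA and IgM across epithelia, had 8.51, 11 and 7.27 CPM in BN-P4, against 53, 86.6 and 55.9 CPM in BN-Oil (log2 fold change -2.87 ± 0.28, adjusted p = 2.2e-05). Each of these 3 genes was low in all progesterone libraries by a wide margin. Col17a1, a collagen that anchors epithelial cells to their basement membrane, had 3.36, 3.61 and 3.69 CPM in BN-P4, against 35.4, 30.7 and 30.5 CPM in BN-Oil (log2 fold change -3.18 ± 0.48, adjusted p = 0.0005). Gad1, which makes the transmitter GABA, had 2.26, 1.57 and 1.37 CPM in BN-P4, against 15.1, 22.1 and 18.5 CPM in BN-Oil (log2 fold change -3.42 ± 0.28, adjusted p = 7.3e-06). Slc14a1, a urea transporter, fell (log2 fold change -2.76 ± 0.75, adjusted p = 0.017) but lost its call without BN-Oil replicate 1, BN-P4 replicate 1 or BN-P4 replicate 3. The list of the 15 largest falls also held 5830473C10Rik (-3.57), RGD1565512 (-3.06), Bcas1 (-2.99), the uroplakin relative Upk3bl (-2.85), Klhl14 (-2.66, with 50.2% of reads placed uniquely) and the copper oxidase relative Hephl1 (-2.65). Cxcl10, Oas2 and Dhrs9, the remaining members, are described with their groups.

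**Figure D1:**
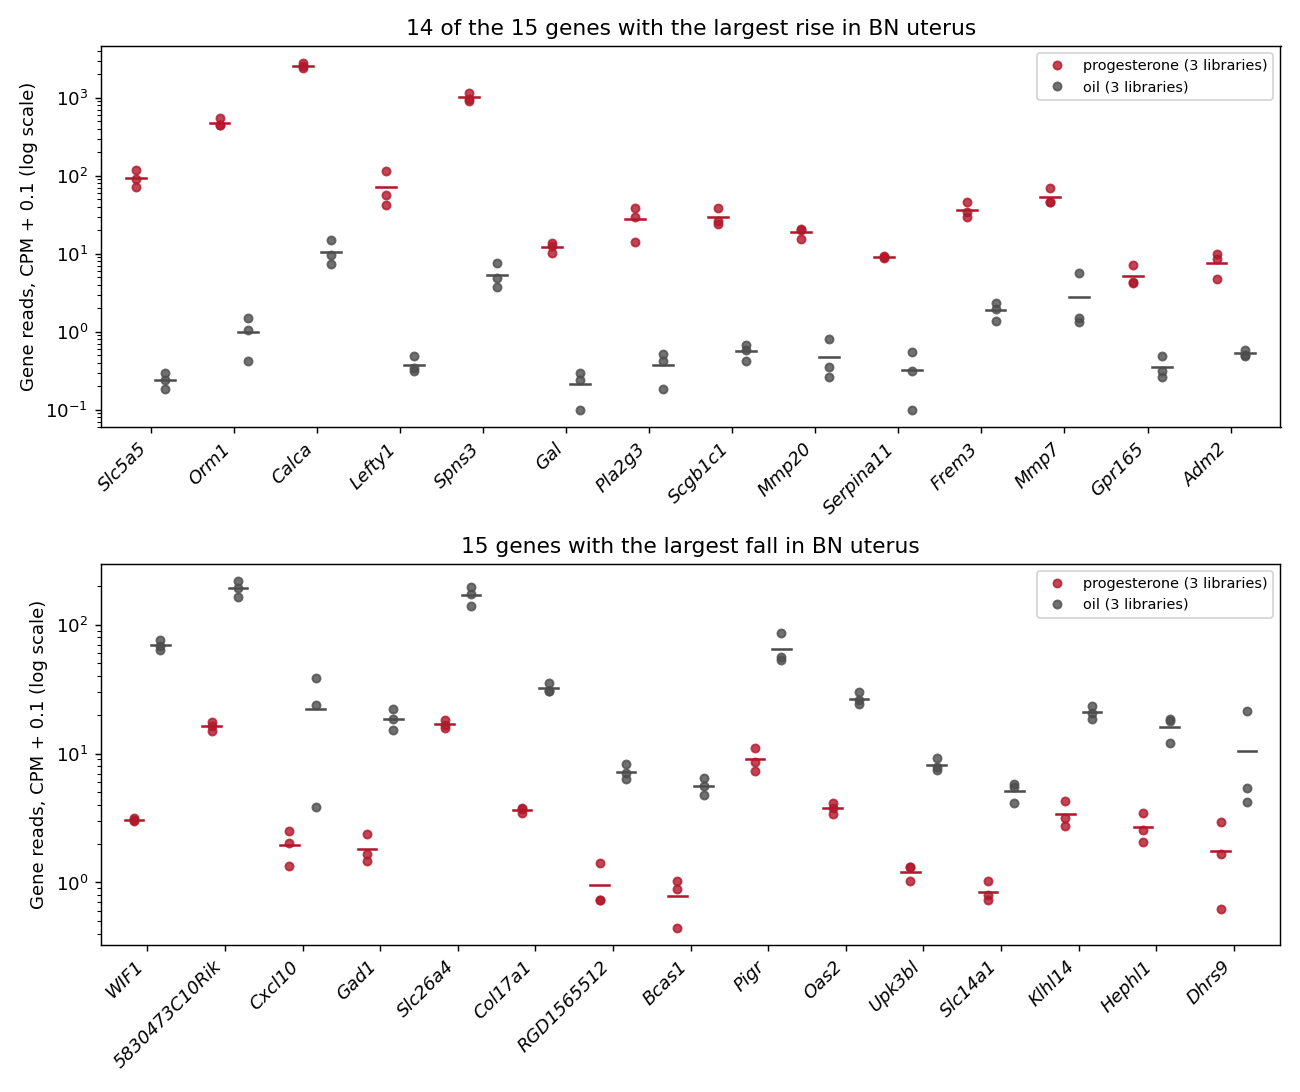
CPM plus 0.1 of gene reads on a log axis for 14 of the 15 genes with the largest rise (top) and the 15 with the largest fall (bottom) in BN uterus; each point is a library, 3 with progesterone on the left and 3 with oil on the right of each gene, and bars are means. Calca stood between 2384 and 2766 CPM in BN-P4, while the oil libraries of Slc5a5 held at most 3 reads each.

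In all, 30 genes rose from at most 3 reads in every oil library, and 13 fell to at most 3 reads in every progesterone library. The 10 most abundant of the 30 were Slc5a5, Gal, B3gnt5, Cd52, Cidec, Calcb, Crygn, Aqp8, an unnamed gene (ENSRNOG00000029897) and Kb23. Gal, the neuropeptide galanin, had 12.4, 10.1 and 13.8 CPM in BN-P4, against 0.192, 0.141 and 0 CPM in BN-Oil. Cd52, a short surface glycoprotein of lymphocytes and of male genital epithelium, had 2.9, 2.23 and 1.95 CPM in BN-P4, against 0, 0.0703 and 0 CPM in BN-Oil. No fold is given for these, because the oil level rests on so few reads.

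Genes known to respond to progesterone in the uterus were counted on a list written with earlier results of these data known. It holds Calca, among the largest rises above. Of 29 tested genes on it, 13 rose and 2 fell (44.8% and 6.9%, against 14% and 11.8% of all genes). These shares describe the list and are no independent check of the treatment. Fkbp5, a co-chaperone of steroid receptors, had 79.1, 83.1 and 80.5 CPM in BN-P4, against 23, 22.3 and 18.7 CPM in BN-Oil (log2 fold change 1.92 ± 0.13, adjusted p = 1.5e-06). Hsd11b2, which inactivates glucocorticoids, had 95.4, 89.9 and 127 CPM in BN-P4, against 25.4, 20.2 and 22.8 CPM in BN-Oil (log2 fold change 2.19 ± 0.15, adjusted p = 1.5e-06). Both were higher in every progesterone library. Ihh, the hedgehog ligand by which the epithelium signals to the stroma, had 54.6, 60.6 and 61.5 CPM in BN-P4, against 31, 16.1 and 23.3 CPM in BN-Oil (log2 fold change 1.33 ± 0.20, adjusted p = 0.00044), and the hedgehog target Gli1 rose less (0.56 ± 0.12, adjusted p = 0.0055). The receptor itself did not pass the test: Pgr had 305, 285 and 267 CPM in BN-P4, against 303, 316 and 342 CPM in BN-Oil (log2 fold change -0.16 ± 0.10, adjusted p = 0.25). Esr1, the estrogen receptor, had 96.4, 109 and 85.3 CPM in BN-P4, against 120.4, 124 and 133 CPM in BN-Oil (log2 fold change -0.37 ± 0.10, adjusted p = 0.016), a call lost without BN-Oil replicate 3 or BN-P4 replicate 3. Progesterone and oil libraries overlapped in Pgr and did not in Esr1. Hand2 and Bmp2, both parts of the uterine progesterone pathway in mice, had log2 fold changes of 0.16 (adjusted p = 0.45) and -0.22 (adjusted p = 0.49). The count of members that rose was 7 without BN-Oil replicate 3 and 8 without BN-P4 replicate 2, and the count that fell was 1 without BN-Oil replicate 1, BN-P4 replicate 1 or BN-P4 replicate 3.

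Most tested genes of the secretory pathway rose. It is the route by which newly made proteins enter the endoplasmic reticulum (ER), fold, receive sugars and travel to the Golgi. Across 3 lists of this pathway, 67 of 101 tested genes rose and 1 fell, against 14% and 11.8% of all genes. For entry into the ER and transfer of N-glycans, 24 of 32 genes rose (75%) and the others were not called. The median log2 fold change of this list was 0.59, against -0.01 over all tested genes. Sec61b, a subunit of the channel through which proteins enter, had 67.5, 114 and 83 CPM in BN-P4, against 37.7, 38.4 and 37.5 CPM in BN-Oil (log2 fold change 1.22 ± 0.22, adjusted p = 0.0017). Sec61a1, its pore-forming subunit, had 254, 291 and 273 CPM in BN-P4, against 145, 133 and 119 CPM in BN-Oil (log2 fold change 1.04 ± 0.13, adjusted p = 0.00014). Transport between ER and Golgi gave 22 of 38 genes that rose (57.9%), and the others were not called (median 0.47). SEC23B, a coat protein of vesicles that leave the ER, had 93, 86.3 and 91.3 CPM in BN-P4, against 38.6, 38.3 and 38.1 CPM in BN-Oil (log2 fold change 1.24 ± 0.10, adjusted p = 7.5e-06). The progesterone libraries lay above the oil libraries for each of these 3 genes. Ostc, a subunit of the complex that transfers N-glycans, and Uso1, which tethers vesicles at the Golgi, rose by 0.94 ± 0.16 and 0.96 ± 0.11 on the log2 scale.

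ER chaperones and folding enzymes held the largest single rises of the pathway. Of 31 genes for chaperones, the unfolded protein response and ER-associated degradation, 21 rose and 1 fell (median 0.62). These are 67.7% and 3.23%, against 14% and 11.8% of all genes. Hspa5, the master chaperone BiP, had 1084, 949.7 and 1110.4 CPM in BN-P4, against 315, 372 and 269 CPM in BN-Oil (log2 fold change 1.72 ± 0.15, adjusted p = 7.5e-06). Hsp90b1, its HSP90-type partner, had 1446, 1330.4 and 1330.0 CPM in BN-P4, against 536, 662 and 502 CPM in BN-Oil (log2 fold change 1.27 ± 0.14, adjusted p = 4.5e-05). The groups did not overlap in either gene. Sdf2l1, a cofactor of BiP, had 18.7, 26.7 and 22.8 CPM in BN-P4, against 5.37, 8.44 and 5.24 CPM in BN-Oil (log2 fold change 1.83 ± 0.25, adjusted p = 0.00024). Creld2, an ER stress-induced folding factor, had 71.2, 76.8 and 73.7 CPM in BN-P4, against 24.3, 23.8 and 20.9 CPM in BN-Oil (log2 fold change 1.68 ± 0.14, adjusted p = 7.5e-06). All 4 were above oil in every progesterone library. The member that fell was Herpud1, which serves ER-associated degradation, at a mean of 81.8 CPM in BN-P4, against 108 CPM in BN-Oil (log2 fold change -0.40 ± 0.10, adjusted p = 0.011). DDIT3, the stress factor CHOP, did not pass the test (-0.04 ± 0.11, adjusted p = 0.85). In exon reads 20 of the members rose and 2 fell, against 13% and 10.9% of all genes. In intron reads 19 rose and 0 fell, against 8.65% and 9.47% of all genes.

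Many of these chaperone promoters hold the short sequence ATTGGC, the core of a CCAAT box, shown because Hspa5 and Hsp90b1 hold it. It was searched on both strands in RefSeq promoter windows of build GRCr8, from 250 bases before to 50 after each annotated start. It was present in 17 of 25 windows of the chaperone list (68%), against 4685 of 33469 windows in all (14%). Windows in all include genes without enough reads to be tested here, while list members were all tested. The 2 shares are therefore not of like sets, and this holds for every sequence searched below. Other lists of tested genes were also above 14%, such as cell division (35.7%) and immediate early genes (35.3%). It was also in 5 of 10 windows of the smooth muscle list (50%), of which 0 genes were called, and in 10 of 24 windows of uterine transcription factors (41.7%). The stretches below run 5′ to 3′ in the direction of the gene, with the match nearest the start in capitals.
Hspa5, chr3:38452821-38452886, plus strand: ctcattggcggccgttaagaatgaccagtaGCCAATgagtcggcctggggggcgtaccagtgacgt
Hsp90b1, chr7:23012380-23012445, minus strand: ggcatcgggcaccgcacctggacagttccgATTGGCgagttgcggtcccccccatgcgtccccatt
In Hspa5 the match lies on the opposite strand, as GCCAAT. Its first base is at -165 from the start in Hspa5 and at -122 in Hsp90b1.

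ATTGGC was in 3 of 32 windows of ER-Golgi transport genes (9.38%), which held another sequence. TGACGTGG, a form of the unfolded protein response element, was found on either strand in 8 of 32 of their windows (25%), against 0.595% of all windows, and the shorter CCACGT, which overlaps it, in 21 of 32 (65.6%), against 7.84%. CCACGT was also in 12 of 30 windows of ribosome assembly factors (40%). Kdelr3 and Copb2 are shown as examples. Kdelr3, a receptor that returns escaped ER proteins, rose (log2 fold change 0.92 ± 0.13, adjusted p = 0.00027), and Copb2 is a subunit of the coat of vesicles that return to the ER (log2 fold change 0.55 ± 0.09, adjusted p = 0.0011). Capitals mark the match, which reads CCACGTCA on the strand shown.
Kdelr3, chr7:112959501-112959568, plus strand: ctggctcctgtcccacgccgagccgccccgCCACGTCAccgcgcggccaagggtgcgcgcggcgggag
Copb2, chr8:108040647-108040714, plus strand: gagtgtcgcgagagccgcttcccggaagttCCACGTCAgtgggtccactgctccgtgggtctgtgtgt

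Chaperones outside the ER rose as well, in 18 of 23 genes (median 0.57), and the others were not called. This is 78.3%, against 14% of all genes. Hsp90aa1, the inducible cytosolic HSP90, had 1014, 886 and 725 CPM in BN-P4, against 414, 365 and 349 CPM in BN-Oil (log2 fold change 1.22 ± 0.17, adjusted p = 0.00036). Hsph1, a partner of HSP70, had 313, 215 and 227 CPM in BN-P4, against 92.3, 66.9 and 65.8 CPM in BN-Oil (log2 fold change 1.75 ± 0.25, adjusted p = 0.00032). Hspe1, the mitochondrial co-chaperonin, had 141, 140.1 and 136 CPM in BN-P4, against 52.4, 60.7 and 56.7 CPM in BN-Oil (log2 fold change 1.30 ± 0.15, adjusted p = 8.0e-05). The steroid receptor co-chaperones Fkbp4 (0.97 ± 0.13) and Ptges3, also known as p23 (0.98 ± 0.12), rose by close to 2-fold.

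**Figure D2:**
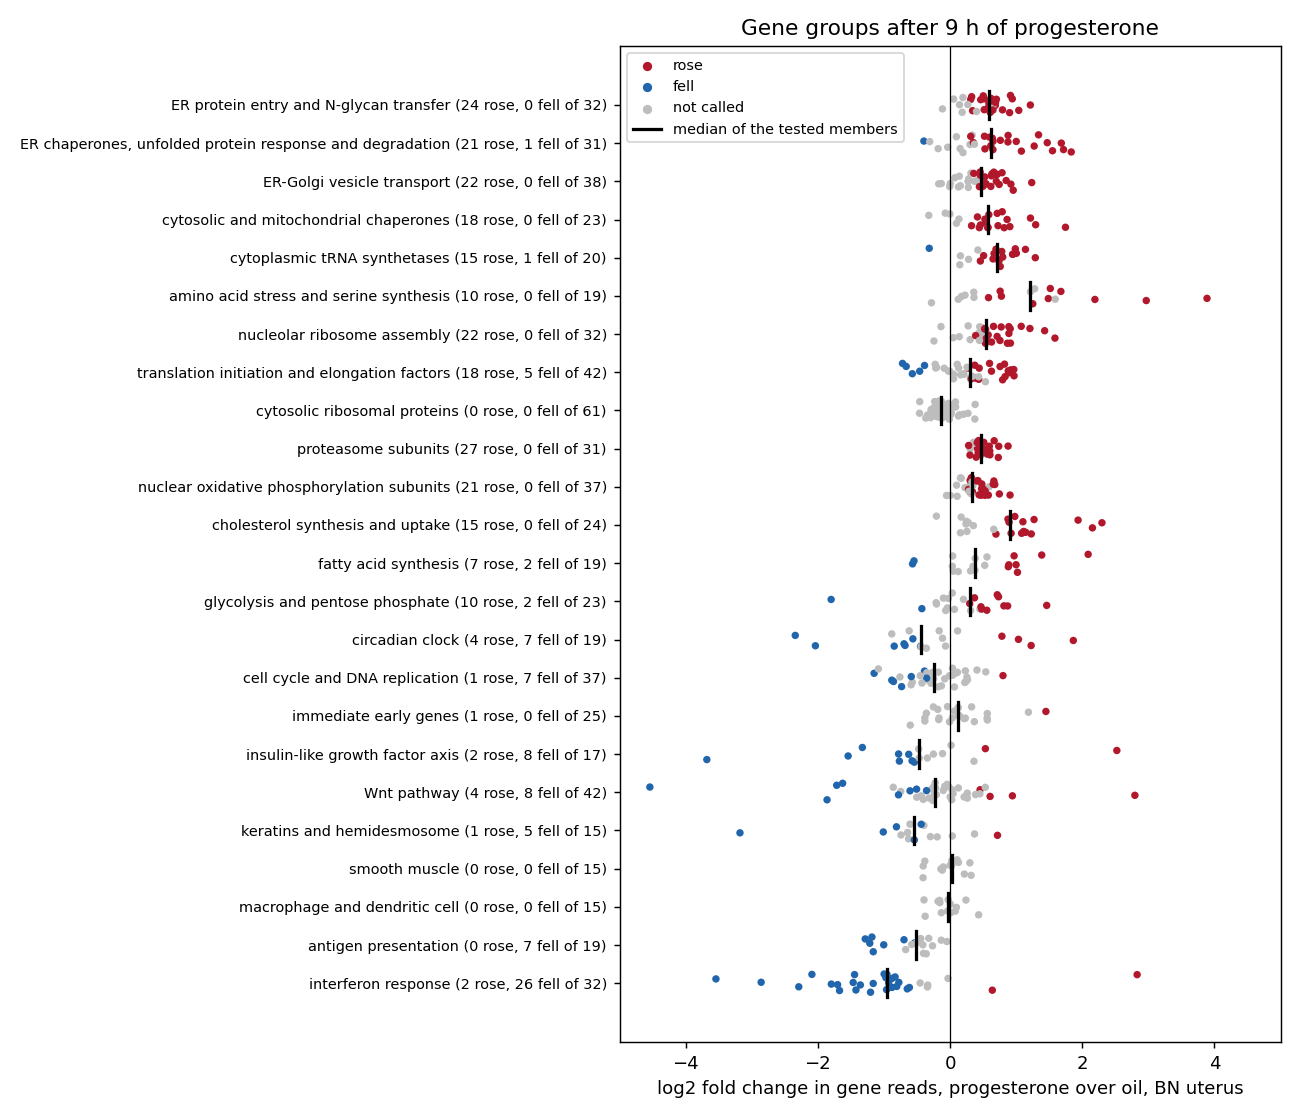
log2 fold change of gene reads, progesterone over oil, in BN uterus for the tested members of 24 gene groups; each point is a gene, coloured by its call, and bars are medians. Groups of the secretory pathway, chaperones, tRNA synthetases and proteasome lie to the right of 0, interferon response genes to the left, and smooth muscle and macrophage markers hold 0 called genes.

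Most enzymes that attach amino acids to their tRNAs rose. Of 20 cytoplasmic aminoacyl-tRNA synthetases, 15 rose and 1 fell (75% and 5%, against 14% and 11.8% of all genes), with a median of 0.72. Eprs, which charges glutamate and proline tRNAs, had 494, 561 and 536 CPM in BN-P4, against 216, 224 and 210.4 CPM in BN-Oil (log2 fold change 1.29 ± 0.11, adjusted p = 7.5e-06). Tars, for threonine, had 107, 96.2 and 107 CPM in BN-P4, against 46.4, 49.5 and 44.6 CPM in BN-Oil (log2 fold change 1.14 ± 0.09, adjusted p = 4.0e-06). Iars, for isoleucine, had 129, 107 and 131 CPM in BN-P4, against 62, 59.7 and 61 CPM in BN-Oil (log2 fold change 1.00 ± 0.15, adjusted p = 0.0004). In all 3 of these genes the groups did not overlap, as in 4027 of the 4045 called genes. Qars, for glutamine, was the exception at 141, 121 and 145 CPM in BN-P4, against 171, 169 and 167 CPM in BN-Oil (log2 fold change -0.31 ± 0.10, adjusted p = 0.031), and its call was lost in 5 alternative settings.

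Enzymes that make amino acids and one-carbon units also rose. Of 19 genes of the amino acid stress response and serine synthesis, 10 rose and the others were not called (median 1.22). This is 52.6%, against 14% of all genes. Mthfd2, the mitochondrial folate enzyme, had 38.6, 60.1 and 54.1 CPM in BN-P4, against 2.05, 5.56 and 2.7 CPM in BN-Oil (log2 fold change 3.89 ± 0.33, adjusted p = 8.4e-06). Psat1, a step of serine synthesis, had 65.5, 95.1 and 97.3 CPM in BN-P4, against 9.66, 12.2 and 11.1 CPM in BN-Oil (log2 fold change 2.97 ± 0.16, adjusted p = 2.2e-07). Asns, which makes asparagine, had 41.8, 40.7 and 56.9 CPM in BN-P4, against 8.7, 12.2 and 9.58 CPM in BN-Oil (log2 fold change 2.19 ± 0.21, adjusted p = 1.7e-05). In all 3 genes the lowest progesterone library was more than 3-fold above the highest oil library. The transporters of amino acids split, with 6 of 28 that rose and 5 that fell (21.4% and 17.9%, against 14% and 11.8% of all genes). Slc7a11, the cystine importer, had 9.85, 12.5 and 18.8 CPM in BN-P4, against 0.767, 2.46 and 1.47 CPM in BN-Oil (log2 fold change 3.14 ± 0.35, adjusted p = 6.0e-05). Slc7a5, which imports large neutral amino acids, had 18, 19 and 31.7 CPM in BN-P4, against 6.14, 6.68 and 6.64 CPM in BN-Oil (log2 fold change 1.82 ± 0.29, adjusted p = 0.00074). Slc6a14 had 1.8, 2.03 and 3.43 CPM in BN-P4, against 4.54, 11.3 and 5.9 CPM in BN-Oil (log2 fold change -1.57 ± 0.39, adjusted p = 0.01). The count that fell was 3 without BN-Oil replicate 2, which also removed the call of Slc6a14.

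TGATGCAA, the element bound by ATF4 with a C/EBP partner, was searched on both strands and was chosen after counts of other motifs had been seen. Atf4 itself rose (log2 fold change 0.65 ± 0.10, adjusted p = 0.00067), and its part in these changes was not tested. TGATGCAA was in 7 of 17 synthetase windows (41.2%), against 266 of 33469 windows in all (0.795%). On the amino acid stress list it was in 3 of 17 windows (17.6%), those of Chac1, Pycr1 and Fgf21, and not in those of Mthfd2 and Psat1. The windows of Iars and Tars are shown with the match in capitals, which lies on the opposite strand in both, at -24 and -27 from the start.
Iars1, chr17:15193639-15193706, minus strand: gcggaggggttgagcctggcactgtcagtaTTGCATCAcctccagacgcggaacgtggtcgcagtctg
Tars1, chr2:62114792-62114859, minus strand: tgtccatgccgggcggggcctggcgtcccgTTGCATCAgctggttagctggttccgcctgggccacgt

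Genes that build ribosomes rose, while the genes of the ribosomal proteins themselves were not called. Of 32 nucleolar factors of ribosome assembly, 22 rose and the others were not called (median 0.54). This is 68.75%, against 14% of all genes. Rrp12, a ribosome export factor, had 49.8, 37.2 and 46.5 CPM in BN-P4, against 15.9, 14.8 and 13.8 CPM in BN-Oil (log2 fold change 1.59 ± 0.23, adjusted p = 0.00044). Bysl, needed for the small subunit, had 34.1, 34.5 and 36 CPM in BN-P4, against 15.5, 12.9 and 10.2 CPM in BN-Oil (log2 fold change 1.43 ± 0.16, adjusted p = 6.4e-05), and the RNA helicase Ddx21 rose by 1.21 ± 0.17 on the log2 scale. Of 61 ribosomal protein genes, a list added after the values had been seen, 0 rose and 0 fell in gene reads (range -0.46 to 0.38, median -0.14) by edgeR, and 2 fell at an unadjusted p below 0.05. DESeq2 called 2 that fell, and limma voom with quality weights 1 that rose and 11 that fell. Of 42 factors of translation, 18 rose and 5 fell (42.9% and 11.9%, against 14% and 11.8% of all genes), so the falls were near the share of all genes. Eif4a1, the helicase of initiation, had 711, 694 and 709 CPM in BN-P4, against 345, 375 and 359.8 CPM in BN-Oil (log2 fold change 0.97 ± 0.10, adjusted p = 2.8e-05), and Eif2s2, a subunit of the initiator tRNA carrier, and Etf1, a release factor, rose by 0.96 ± 0.14 and 0.92 ± 0.09. Eef1a1, which delivers tRNAs to the ribosome, had 4559, 5299 and 4923 CPM in BN-P4, against 8863, 7573 and 7891 CPM in BN-Oil (log2 fold change -0.72 ± 0.14, adjusted p = 0.0025), with 35% of its reads placed uniquely, and Eef2, which moves the ribosome along, had 1088, 1315 and 1223 CPM in BN-P4, against 2329, 1616 and 1796 CPM in BN-Oil (log2 fold change -0.66 ± 0.18, adjusted p = 0.016). Eef2 showed the largest loss of CPM of any gene that met the naming conditions, and its call was lost without BN-Oil replicate 1 or BN-P4 replicate 1.

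Most subunits of the proteasome, which degrades tagged proteins, rose by a small amount. Of 31 subunits 27 rose (87.1%, against 14% of all genes). The list ranged between 0.28 and 0.88 on the log2 scale (median 0.47). Psmd14, a deubiquitinase of the lid, had 69.7, 77.2 and 71.9 CPM in BN-P4, against 34.1, 42.9 and 42.1 CPM in BN-Oil (log2 fold change 0.88 ± 0.16, adjusted p = 0.0019). Psmc5, an ATPase of the base, had 127, 117 and 136 CPM in BN-P4, against 77.5, 75.5 and 74.6 CPM in BN-Oil (log2 fold change 0.74 ± 0.09, adjusted p = 0.00016). Psmd1, a scaffold of the base, rose by 0.73 ± 0.12. The count was 17 without BN-Oil replicate 3 and 16 without BN-P4 replicate 2. Nuclear genes for oxidative phosphorylation gave 21 of 37 that rose (56.8%), and the others were not called (median 0.34). Their summed level was 5786, 6540 and 6462 CPM in BN-P4, against 4700, 4948 and 4824 CPM in BN-Oil. Cox5a, a subunit of cytochrome oxidase, had 92, 86.7 and 93.9 CPM in BN-P4, against 44.6, 53.1 and 47.6 CPM in BN-Oil (log2 fold change 0.91 ± 0.10, adjusted p = 4.9e-05). Ndufb9, a subunit of complex I, and Atp5f1, a subunit of the ATP synthase with 33.2% of its reads placed uniquely, rose by 0.68 ± 0.13 and 0.75 ± 0.16. This count was less stable, at 10 with upper-quartile scaling and at 10, 13, 9, 9 and 8 without BN-Oil replicates 1, 2 and 3 and BN-P4 replicates 2 and 3.

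Genes of lipid synthesis rose in the sterol branch and, in part, in fatty acid synthesis. Of 24 genes of cholesterol synthesis and uptake, 15 rose (62.5%, against 14% of all genes) and the others were not called (median 0.91). Idi1, which makes the isoprenoid building block, had 121, 157 and 116 CPM in BN-P4, against 27.3, 33.5 and 19 CPM in BN-Oil (log2 fold change 2.30 ± 0.30, adjusted p = 0.00016). Sqle, the squalene epoxidase, had 56.6, 52.8 and 52.4 CPM in BN-P4, against 18.9, 27.1 and 21.1 CPM in BN-Oil (log2 fold change 1.27 ± 0.16, adjusted p = 0.00012). Fdps, which joins isoprenoid units into farnesyl diphosphate, rose by 1.23 ± 0.10 (adjusted p = 6.9e-06). Srebf2, a transcription factor of sterol synthesis, did not pass the test (0.26 ± 0.20, adjusted p = 0.37). Of 19 genes of fatty acid synthesis 7 rose and 2 fell (36.8% and 10.5%, against 14% and 11.8% of all genes), and 17 had a log2 fold change above 0. Those that rose included Elovl6, an elongase (45.2 ± 8.57 CPM in BN-P4 and 10.6 ± 1.73 CPM in BN-Oil, SD, n = 3 each), and Scd, a desaturase (1213 ± 55.8 CPM in BN-P4 and 598 ± 31.3 CPM in BN-Oil). Agpat2, an acyltransferase, rose by 1.39 ± 0.20, and Acacb, an acetyl-CoA carboxylase, fell (-0.57 ± 0.18), a call lost in 6 alternative settings. The count that rose was 13 when the 6 BN libraries were fitted alone and 11 with limma voom. Glycolysis gave 10 of 23 that rose and 2 that fell (43.5% and 8.7%, against 14% and 11.8% of all genes). Pgk1 had 247, 257 and 233 CPM in BN-P4, against 87, 101 and 79.3 CPM in BN-Oil (log2 fold change 1.46 ± 0.10, adjusted p = 1.6e-06). Aldoc, an aldolase isoform, had 5.73, 5.25 and 5.38 CPM in BN-P4, against 20.5, 17.5 and 19 CPM in BN-Oil (log2 fold change -1.80 ± 0.14, adjusted p = 5.8e-06). Tpi1, triose phosphate isomerase, rose by 0.87 ± 0.10. The glycolytic count was 6, 5 and 5 without BN-Oil replicate 2, BN-Oil replicate 3 and BN-P4 replicate 3.

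Reads in introns are often taken to come from RNA not yet spliced, and exon reads from mature RNA, so both were tested. Whether this holds here was not tested, and some genes had nearly all reads in introns (94.5% for Atp8b5 and 90.6% for Xpa). Genes with 0 annotated exons, 1922 in the tables, have all their reads counted as intron. In exon reads 3425 of 14358 genes were called (23.9%), 1861 of them higher with progesterone (13%) and 1564 lower (10.9%). In intron reads 2450 of 13523 were called (18.1%), 1170 higher (8.65%) and 1280 lower (9.47%). Both changes mostly went together: of 12548 genes tested in both, 77.6% had the same sign, and of the 3166 called in exons 3011, or 95.1%, had the same sign in introns. Across these genes the 2 log2 changes had a Pearson r of 0.789 and a Spearman rho of 0.74, a description over genes that share the same 6 libraries. Both rose in 785 genes and both fell in 756. Exon calls alone were made for 934 genes that rose and 686 that fell, and a direct test called a difference from the intron change in 54 and 40 of them. Without BN-Oil replicates 1 and 3, 2281 and 2119 genes were called in exons, and without BN-Oil replicate 3 and BN-P4 replicate 1, 1545 and 1628 in introns.

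The direct test of the exon change minus the intron change called 236 of 12548 genes (1.88%), 124 above 0 (0.988%) and 112 below 0 (0.893%). The count was 74, 105, 81, 98 and 154 without BN-Oil replicates 1, 2 and 3 and BN-P4 replicates 1 and 3. Ada, adenosine deaminase, is an example above 0. Its exon reads were 191, 251 and 210.1 CPM in BN-P4, against 25.8, 31.2 and 27 CPM in BN-Oil, and its intron reads 17.5, 20 and 18.9 CPM in BN-P4, against 8.89, 9.92 and 9.26 CPM in BN-Oil (exon minus intron 1.96 ± 0.29, adjusted p = 0.0025). Timd2, a cell-surface receptor of the Tim family, changed by 4.02 in exons and 2.05 in introns (exon minus intron 1.97 ± 0.23, adjusted p = 5.4e-05). Sqle, squalene epoxidase, had exon reads of 43.6, 40.7 and 38.7 CPM in BN-P4, against 8.7, 14.1 and 9.58 CPM in BN-Oil and intron reads of 13, 12.1 and 13.7 CPM in BN-P4, against 10.2, 12.9 and 11.5 CPM in BN-Oil (exon minus intron 1.79 ± 0.20, adjusted p = 4.8e-05), so that its exons rose while its introns did not pass the test (adjusted p = 0.5). Slc28a3, a nucleoside transporter, had the largest difference (exon minus intron 2.63 ± 0.34, adjusted p = 0.00027), with exons at 2.20 and introns at -0.43. In Ada and Sqle the exon reads of every progesterone library lay above those of every oil library. The 10 largest differences also held D430041D05Rik (2.18), Serping1 (2.06), Nkain1 (1.96), Inmt (1.91), Pc (1.76) and Ralgps2 (1.71), and Serping1 could not be tested with uniquely placed reads. With those reads Pc was at 0.90, and Nkain1 lost its call without BN-Oil replicate 2, BN-Oil replicate 3 or BN-P4 replicate 1.

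Below 0, Paip2 had the lowest value. It encodes an inhibitor of the poly(A)-binding protein and had exon reads of 101, 103 and 102 CPM in BN-P4, against 130.2, 163 and 148 CPM in BN-Oil and intron reads of 101, 113 and 89.9 CPM in BN-P4, against 31.7, 30.4 and 28.3 CPM in BN-Oil (exon minus intron -2.25 ± 0.15, adjusted p = 2.0e-08), with 57.6% of its reads placed uniquely. Eef2 had exon reads of 1066, 1293 and 1198 CPM in BN-P4, against 2315, 1604 and 1785 CPM in BN-Oil and intron reads of 21.7, 21.4 and 25.1 CPM in BN-P4, against 14.3, 12.9 and 11.6 CPM in BN-Oil (exon minus intron -1.47 ± 0.18, adjusted p = 9.2e-05). Exons fell and introns rose in both genes, and the progesterone and oil libraries did not overlap in either measure. The 10 lowest differences also held Slc51a (-1.86), Atp8b5 (-1.70), the tachykinin receptor Tacr1 (-1.56), Apba1 (-1.54), Tfdp2 (-1.47), Map3k4 (-1.45), Ctnnd2 (-1.41) and Gsta3 (-1.36). Of these, Slc51a, Tacr1, Apba1, Ctnnd2 and Gsta3 lost their calls in 4, 2, 2, 5 and 7 alternative settings. For Slc51a these included BN-Oil replicates 1 and 3 and BN-P4 replicate 2 left out, for Tacr1 BN-Oil replicate 1, for Apba1 BN-Oil replicate 3, for Ctnnd2 BN-Oil replicates 1 and 3 and BN-P4 replicates 1 and 2, and for Gsta3 each BN library in turn. Of the genes tested, 5 were called in opposite directions in exons and introns: Paip2, Eef2, Rpl3 and Xpa fell in exons and rose in introns, and Ralgps2 did the reverse. Of the 42 translation factors, 7 were called below 0 (Eef2, Eef1g, Eef1a1, EIF3F, Eef1d, Eif4b and Eif3h) and 1 above 0 (Eif2b5), and the median over the list was 0.00. The count below 0 was 3, 4, 4, 4 and 4 without BN-Oil replicates 1, 2 and 3 and BN-P4 replicates 1 and 3.

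**Figure D3:**
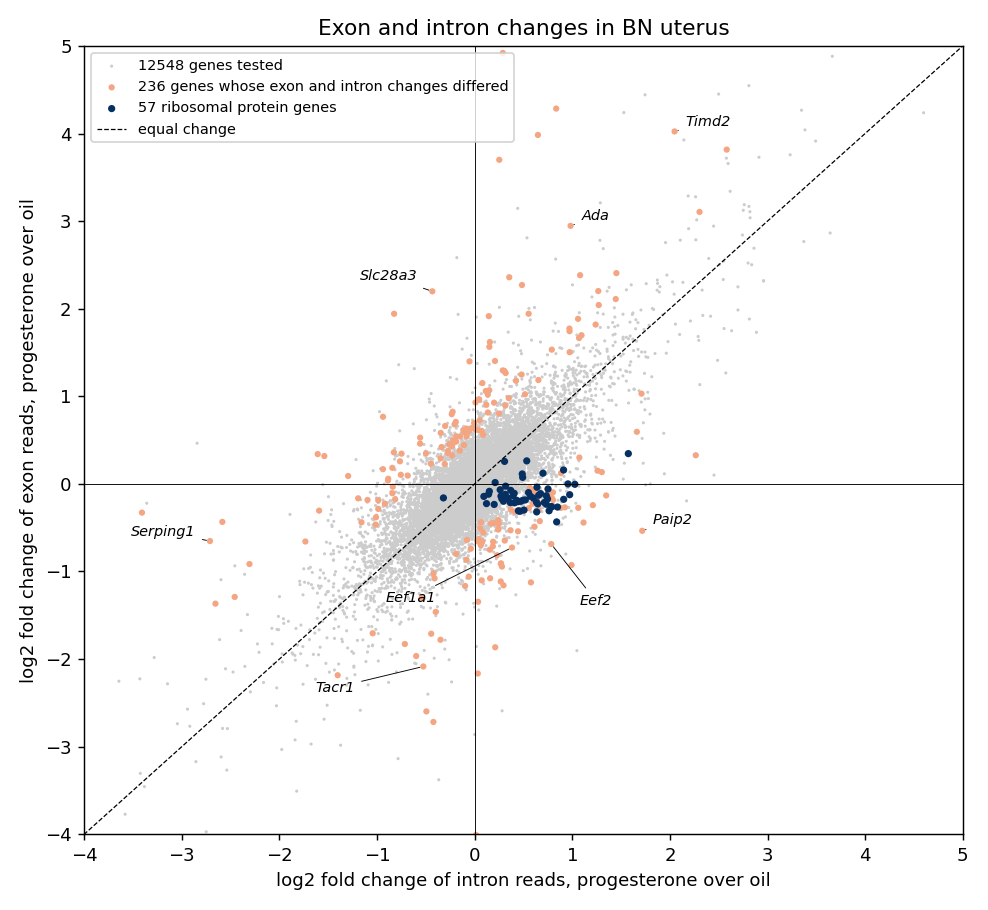
log2 fold change of exon reads (vertical) against that of intron reads (horizontal), progesterone over oil, for the 12548 genes tested in both in BN uterus; 26 genes lie outside the axes. Most genes follow the line of equal change, and the 57 ribosomal protein genes form a cluster below it, near 0 in exons and mostly to the right of 0 in introns.

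Ribosomal protein genes, a list added after the values had been seen, lay almost entirely on one side in this test. Of 57 that could be tested, 56 had a difference below 0 and 21 were called, against 0.893% of all genes, and 0 were called above 0 (median -0.68, against -0.01 over all genes). In intron reads 33 of the 57 rose and 0 fell, against 8.65% and 9.47% of all genes. In exon reads 0 of 61 rose and 1, Rpl3, fell, against 13% and 10.9% of all genes. Rpl3 had exon reads of 919, 1114 and 1072 CPM in BN-P4, against 1410.5, 1389.5 and 1372 CPM in BN-Oil and intron reads of 74.4, 75.4 and 76.3 CPM in BN-P4, against 38.4, 44.6 and 41.4 CPM in BN-Oil (exon minus intron -1.28 ± 0.14, adjusted p = 4.8e-05). Rpl10 had exon reads of 726, 952 and 910.2 CPM in BN-P4, against 1008, 1058 and 1117 CPM in BN-Oil and intron reads of 84, 82.7 and 94.7 CPM in BN-P4, against 49.2, 53 and 49.8 CPM in BN-Oil (exon minus intron -1.07 ± 0.16, adjusted p = 0.0012). The introns of both genes were higher in every progesterone library than in any oil library, and the exons were lower. Summed over the 57 genes, intron reads were 1169, 1204 and 1196 CPM in BN-P4, against 812, 823 and 810.2 CPM in BN-Oil, and exon reads were 31348, 43042 and 36691 CPM in BN-P4, against 41083, 40679 and 42022 CPM in BN-Oil. The sums of introns did not overlap between the groups, while the exon sum of BN-P4 replicate 2 lay above all oil libraries. Over all 12548 genes the share of intron reads was 23.7, 24.7 and 22.9% in BN-P4, against 23, 24.9 and 24.9% in BN-Oil, where the groups overlapped.

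The number of ribosomal protein genes called depended on the libraries, at 7, 13, 8, 7, 32 and 8 without BN-Oil replicates 1, 2 and 3 and BN-P4 replicates 1, 2 and 3, whereas 55 to 57 of 57 lay below 0 in all of these. Many have processed copies elsewhere in the genome, which makes the placement of their exon reads uncertain. With uniquely placed reads alone, an alternative added after the data were seen, 52 of 53 lay below 0 and 19 were called. Rpl3, Rpl10 and Rpsa, with nearly all reads placed uniquely, had differences of -1.28, -1.07 and -0.98.

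**Figure D4:**
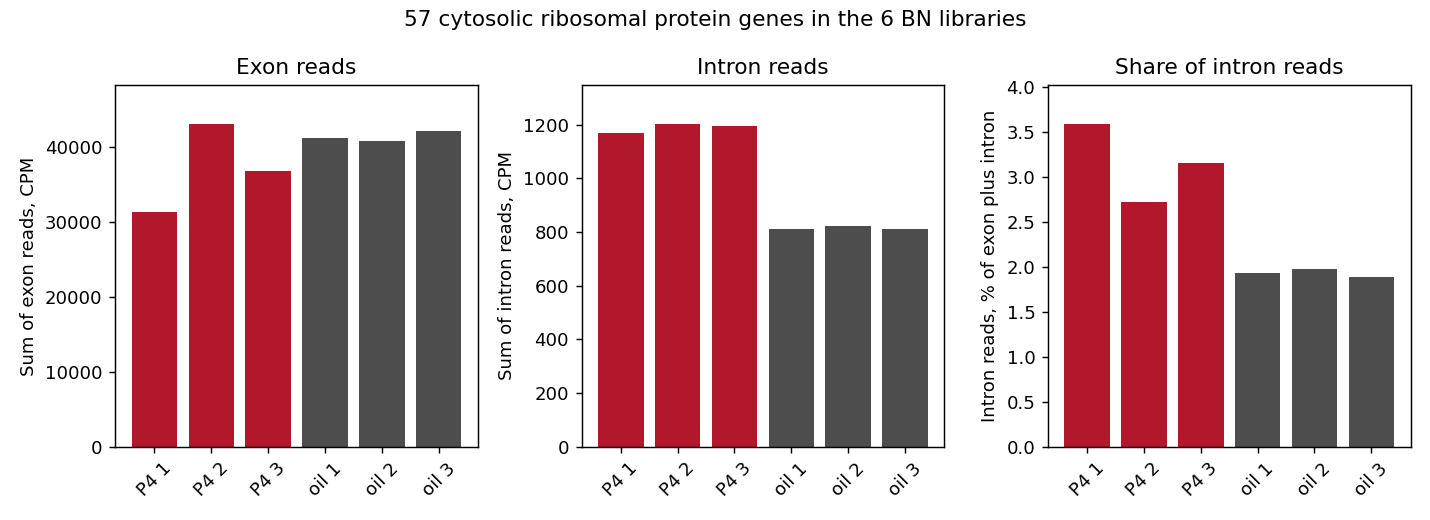
Summed exon reads, summed intron reads (both CPM) and the share of intron reads for 57 ribosomal protein genes, 1 bar per BN library, with the 3 progesterone libraries in red on the left. Intron sums lay between 1169 and 1204 CPM in BN-P4 and between 810.2 and 823 CPM in BN-Oil.

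Messages for ribosomal proteins and several elongation factors begin with a run of pyrimidines, the TOP motif, which couples their translation to growth signals. A run was searched as a C followed by at least 6 pyrimidines, starting within 5 bases of the annotated start. It was present in 28 of 49 ribosomal protein windows (57.1%), against 2077 of 33469 windows in all (6.21%). The 50 bases around the start are shown for genes called below 0 in the exon minus intron test, with the run in capitals. Rpl3 and Eef2 are included because no run was found by this rule.
Rpl10, chrX:157205830-157205879, plus strand: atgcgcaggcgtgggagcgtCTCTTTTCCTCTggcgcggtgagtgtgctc
Rpl23, chr10:83272155-83272204, minus strand: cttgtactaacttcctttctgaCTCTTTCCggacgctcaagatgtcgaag
Rpl4, chr8:73566457-73566506, plus strand: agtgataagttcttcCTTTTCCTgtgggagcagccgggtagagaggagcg
Eif3f, chr1:172369042-172369091, plus strand: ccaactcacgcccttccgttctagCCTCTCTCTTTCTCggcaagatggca
Rpl3, chr7:113507961-113508010, minus strand: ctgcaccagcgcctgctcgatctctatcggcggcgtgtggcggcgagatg
Eef2, chr7:9189209-9189258, minus strand: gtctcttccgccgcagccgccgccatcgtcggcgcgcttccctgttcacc
The windows of Rpl3 and Eef2 have no capitals, which says only that these letters are not at the annotated start. The differences for Rpl23, Rpl4 and EIF3F were -1.09, -1.05 and -0.91 (adjusted p = 0.0097, 0.0014 and 0.00088).

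Growth factor signalling changed in ligands, receptors and secreted inhibitors. In the insulin-like growth factor axis 2 of 17 genes rose and 8 fell (11.8% and 47.1%, against 14% and 11.8% of all genes). Igf1, the ligand, had 99, 133 and 92.9 CPM in BN-P4, against 17.3, 18 and 21.1 CPM in BN-Oil (log2 fold change 2.52 ± 0.23, adjusted p = 1.1e-05). Irs2, an adaptor of the receptor, had 31.1, 27.6 and 39.2 CPM in BN-P4, against 116, 81.4 and 87.6 CPM in BN-Oil (log2 fold change -1.54 ± 0.27, adjusted p = 0.0015). The receptors Igf1r and Insr fell by 0.54 and 0.57 on the log2 scale. The binding proteins Igfbp2 and Igfbp3 fell (-0.77 ± 0.25 and -0.78 ± 0.13), and Igfbp4 rose (0.53 ± 0.16), while Igfbp1 had 0, 0.0656 and 0.0527 CPM in BN-P4, against 0.575, 0.914 and 0.246 CPM in BN-Oil, at most 1 read in a progesterone library. The count that rose was 1 without any 1 of BN-Oil replicates 1, 2 and 3 and BN-P4 replicates 1 and 3. In the Wnt pathway 8 of 42 genes fell and 4 rose (19% and 9.52%, against 11.8% and 14% of all genes). Besides WIF1, the ligand Wnt2 had 5.68, 7.48 and 5.48 CPM in BN-P4, against 17.3, 23.7 and 26.6 CPM in BN-Oil (log2 fold change -1.86 ± 0.26, adjusted p = 0.00028), and the ligand Wnt7a, made by the epithelium, and the feedback target Axin2 fell (-1.71 ± 0.19 and -0.78 ± 0.13). Wnt10a had 2.9, 3.35 and 3.79 CPM in BN-P4, against 0.703, 0.0703 and 0.655 CPM in BN-Oil (log2 fold change 2.80 ± 0.50, adjusted p = 0.0016). The count of Wnt genes that rose was 2, 1, 2 and 2 without BN-Oil replicate 2, BN-Oil replicate 3, BN-P4 replicate 1 and BN-P4 replicate 3.

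Of 35 genes of BMP, activin and TGF-beta signalling 4 rose and 5 fell. This is near the share of all genes (11.4% and 14.3%, against 14% and 11.8%). In the activin branch of TGF-beta signalling, Inhbb, an activin subunit, had 10.8, 6.82 and 9.8 CPM in BN-P4, against 26.2, 19.3 and 20.7 CPM in BN-Oil (log2 fold change -1.27 ± 0.24, adjusted p = 0.0024). Fst, which binds and blocks activin, had 5.44, 9.12 and 9.38 CPM in BN-P4, against 3.2, 3.16 and 3.19 CPM in BN-Oil (log2 fold change 1.32 ± 0.23, adjusted p = 0.0012). The groups did not overlap in either gene. Among prostaglandin genes 5 of 21 rose and 1 fell (23.8% and 4.76%, against 14% and 11.8% of all genes). Ptgs1, the constitutive cyclooxygenase, had 201, 260.4 and 251 CPM in BN-P4, against 76, 81.4 and 73.2 CPM in BN-Oil (log2 fold change 1.63 ± 0.12, adjusted p = 3.3e-06), and Ptgs2, the inducible form, did not pass the test (-0.08 ± 0.22, adjusted p = 0.83). Ptgr1, a reductase of prostaglandins and leukotrienes, fell (-0.76 ± 0.20), and Pla2g3 and Ptges3 are on this list as well. Of 19 genes of retinoic acid, 5 rose and 4 fell (26.3% and 21.1%, against 14% and 11.8% of all genes). The count that rose was 2, 3 and 2 without BN-Oil replicate 1, BN-Oil replicate 3 and BN-P4 replicate 3, and 2 fell without BN-P4 replicate 2. Dhrs9 and Aldh1a3, which oxidise retinol and retinal, fell (-2.61 ± 0.62 and -1.40 ± 0.32), and Aldh1a2, another retinal dehydrogenase, rose (0.65 ± 0.16). Cyp26a1, which degrades retinoic acid, rose (1.90 ± 0.62, adjusted p = 0.04), at 0.405, 0.59 and 0.896 CPM in BN-P4, against 0.192, 0.281 and 0 CPM in BN-Oil, and lost its call in 4 alternative settings. Dhrs9 had 1.56, 0.525 and 2.85 CPM in BN-P4, against 4.09, 21.4 and 5.32 CPM in BN-Oil, with BN-Oil replicate 2 far above the other oil libraries, and it was not called when the 6 BN libraries were fitted alone.

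Peptide hormones and neuropeptides moved in both directions. Of 15 tested genes 7 rose, namely Calca, Calcb, Gal, Npy, Adm2, Nppc and Ucn2, and 3 fell, namely Nmb, Stc1 and Adm. These are 46.7% and 20%, against 14% and 11.8% of all genes. Npy had 15.6, 20.5 and 20.2 CPM in BN-P4, against 0.575, 0.985 and 0.737 CPM in BN-Oil, but 21.9% of its reads were placed uniquely. Nmb, neuromedin B, had 3.77, 5.64 and 4.64 CPM in BN-P4, against 19.7, 14.6 and 15.6 CPM in BN-Oil (log2 fold change -1.83 ± 0.23, adjusted p = 0.00012). Adm, the vasodilator adrenomedullin, had 6.89, 6.63 and 7.96 CPM in BN-P4, against 17.6, 14.1 and 16.7 CPM in BN-Oil (log2 fold change -1.17 ± 0.13, adjusted p = 6.1e-05), and its relative Adm2 had 4.58, 8.4 and 9.8 CPM in BN-P4, against 0.384, 0.492 and 0.41 CPM in BN-Oil (log2 fold change 4.13 ± 0.45, adjusted p = 4.9e-05). Members of this peptide family, which share receptors with calcitonin gene-related peptide, thus differed in direction.

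Transcripts of mucins, water channels and ion transporters changed in the whole uterus. Muc1, a membrane mucin, had 5.85, 4.59 and 5.64 CPM in BN-P4, against 20.7, 19.6 and 16 CPM in BN-Oil (log2 fold change -1.80 ± 0.32, adjusted p = 0.0015). Muc4 had 5.44, 2.76 and 5.96 CPM in BN-P4, against 12.9, 28.9 and 17.5 CPM in BN-Oil (log2 fold change -2.05 ± 0.37, adjusted p = 0.0018). Muc20 had 0.753, 1.18 and 1.16 CPM in BN-P4, against 3.58, 5.77 and 4.18 CPM in BN-Oil (log2 fold change -2.12 ± 0.27, adjusted p = 0.00014). All 3 were lower in every progesterone library. Of 32 genes for glycan transfer and mucins 7 fell and 4 rose (21.9% and 12.5%, against 11.8% and 14% of all genes). Of 32 genes for water and ion transport 8 rose and 5 fell (25% and 15.6%, against 14% and 11.8%). Aqp5, a water channel, had 194, 244 and 210.0 CPM in BN-P4, against 95.9, 77.9 and 87.2 CPM in BN-Oil (log2 fold change 1.31 ± 0.14, adjusted p = 4.5e-05), and the sodium pump subunit Atp1b3 rose (1.22 ± 0.16). Cftr, a chloride channel, fell (-1.25 ± 0.31, adjusted p = 0.011), and Scnn1g, a subunit of the epithelial sodium channel, had 0.405, 0.131 and 0.211 CPM in BN-P4, against 1.66, 2.88 and 2.05 CPM in BN-Oil (log2 fold change -3.08 ± 0.50, adjusted p = 0.00083). Prom1, a membrane protein of epithelial microvilli, had 258, 303 and 225 CPM in BN-P4, against 61.3, 74.7 and 64.5 CPM in BN-Oil (log2 fold change 1.97 ± 0.17, adjusted p = 7.5e-06).

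Some genes of the epithelial anchor fell. Of 15 keratin and hemidesmosome genes 5 fell and 1 rose (33.3% and 6.67%, against 11.8% and 14% of all genes). Besides Col17a1, the integrin Itgb4 had 94.8, 72.4 and 97.1 CPM in BN-P4, against 178, 147 and 139 CPM in BN-Oil (log2 fold change -0.81 ± 0.27, adjusted p = 0.044). Krt7 had 19.8, 18.5 and 22.2 CPM in BN-P4, against 13.9, 11.8 and 11 CPM in BN-Oil (log2 fold change 0.72 ± 0.17, adjusted p = 0.0093). The count that fell was 2, 3, 2 and 3 without BN-Oil replicate 2, BN-Oil replicate 3, BN-P4 replicate 1 and BN-P4 replicate 3, and the call of Krt7 was lost without BN-Oil replicate 3. The call of Itgb4 was lost in 7 alternative settings. Of 20 markers of uterine epithelium, 4 rose and 3 fell (20% and 15%, against 14% and 11.8% of all genes). These counts were 2 and 2 without BN-Oil replicate 3, and 3 and 5 without BN-P4 replicate 2. The markers summed to 1237, 1559 and 1290 CPM in BN-P4, against 1115, 1152 and 1089 CPM in BN-Oil, which includes the rise of Prom1 given above. The median over the markers of log2(CPM + 1), minus each gene's mean over the 6 libraries, overlapped between the groups. It was -0.14, 0.17 and 0.02 in BN-P4, against 0.03, 0.03 and -0.13 in BN-Oil. The part of the epithelial share in these results was not tested.

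The clock genes moved in opposite directions within their loop. Of 19 genes 7 fell and 4 rose (36.8% and 21.1%, against 11.8% and 14% of all genes). Nr1d1, a repressor that is itself switched on by the clock, had 21.3, 23.2 and 42.1 CPM in BN-P4, against 153, 119.5 and 168 CPM in BN-Oil (log2 fold change -2.34 ± 0.31, adjusted p = 0.00018). Dbp, an output factor, had 47.8, 56.6 and 79.1 CPM in BN-P4, against 227, 236 and 290.2 CPM in BN-Oil (log2 fold change -2.04 ± 0.20, adjusted p = 2.3e-05). ARNTL, the core activator BMAL1 that Nr1d1 represses, rose (log2 fold change 1.23 ± 0.19, adjusted p = 0.00062), as did Clock (0.78 ± 0.20), Cry1 (1.04 ± 0.15) and Nfil3, a repressor of Dbp targets (27.2, 25.3 and 29.9 CPM in BN-P4, against 8.95, 7.81 and 5.73 CPM in BN-Oil; log2 fold change 1.87 ± 0.26, adjusted p = 0.00026). Per1 and Per2 did not pass the test (-0.07 ± 0.24 and 0.11 ± 0.11; adjusted p = 0.87 and 0.49). The labels give the interval after injection and not the hour of day at collection, so treatment and a difference in clock time cannot be told apart. BN-P4 replicate 3 had the highest Nr1d1 and Dbp of its group.

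Genes of cell division were counted on a list that holds cyclins, kinases, inhibitors of the cycle and replication factors. Of 37 genes 7 fell and 1 rose (18.9% and 2.7%, against 11.8% and 14% of all genes). The falls were Ccne1, Mcm3, Cdk1, Cdkn1b, Mcm7, Aurka and Mcm4, and the rise was Cdkn1a. Cdkn1b and Cdkn1a both encode inhibitors of the cycle, so the inhibitors moved in both directions. Ccne1, a cyclin, and Cdk1, the mitotic kinase, fell (-1.15 ± 0.34 and -0.86 ± 0.26), and each lost its call in 5 alternative settings. Mcm3, part of the replicative helicase, had 6.95, 5.77 and 7.06 CPM in BN-P4, against 9.53, 15.5 and 11.6 CPM in BN-Oil (log2 fold change -0.88 ± 0.20, adjusted p = 0.0058). Cdkn1a, an inhibitor of the cycle, had 7.12, 6.56 and 6.01 CPM in BN-P4, against 4.28, 3.38 and 3.6 CPM in BN-Oil (log2 fold change 0.80 ± 0.26, adjusted p = 0.038). Mki67 and Top2a, markers of dividing cells, had log2 fold changes of 0.09 ± 0.30 and -0.08 ± 0.27 that did not pass the test (adjusted p = 0.87 and 0.87). The count that fell was 3, 4 and 3 without BN-Oil replicate 2, BN-Oil replicate 3 and BN-P4 replicate 2, and the call of Cdkn1a was lost without each of the 6 BN libraries in turn. Of 25 immediate early genes 1 rose, Fos, and it rested on BN-P4 replicate 3: it had 5.04, 6.43 and 23.6 CPM in BN-P4, against 3.9, 5.98 and 2.95 CPM in BN-Oil (log2 fold change 1.45 ± 0.48, adjusted p = 0.044), with BN-P4 replicate 1 below BN-Oil replicate 2, and its call was lost under 6 settings.

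Interferon response genes fell together. Of 32 tested genes 26 fell and 2 rose (81.2% and 6.25%, against 11.8% and 14% of all genes; median -0.96). Oas2, a sensor of double-stranded RNA, had 3.71, 4.0 and 3.32 CPM in BN-P4, against 25.8, 29.9 and 24.2 CPM in BN-Oil (log2 fold change -2.86 ± 0.16, adjusted p = 3.1e-07). Mx1, an antiviral GTPase, had 4.34, 4.2 and 4.11 CPM in BN-P4, against 10.2, 33.5 and 18.2 CPM in BN-Oil (log2 fold change -2.29 ± 0.41, adjusted p = 0.0016). Isg15, a ubiquitin-like modifier, had 6.43, 6.95 and 7.38 CPM in BN-P4, against 14.1, 25.3 and 16.4 CPM in BN-Oil (log2 fold change -1.42 ± 0.27, adjusted p = 0.0025). All 3 encode effectors of the antiviral response. The chemokine Cxcl10 had 1.91, 1.25 and 2.42 CPM in BN-P4, against 3.77, 38.7 and 23.7 CPM in BN-Oil (log2 fold change -3.54 ± 0.64, adjusted p = 0.0017). The oil libraries were spread in Mx1 and Cxcl10, with BN-Oil replicate 2 the highest and BN-Oil replicate 1 the lowest, yet every oil library lay above every progesterone library in all 4 genes. The exceptions were Isg20, an RNA-degrading enzyme, which had 46.7, 78.3 and 52.7 CPM in BN-P4, against 8.06, 9.77 and 7.04 CPM in BN-Oil (log2 fold change 2.83 ± 0.21, adjusted p = 3.7e-06), and Rsad2, or viperin (28.1, 39.1 and 25.5 CPM in BN-P4, against 16.3, 22.9 and 20.3 CPM in BN-Oil; log2 fold change 0.64 ± 0.22, adjusted p = 0.048). Rsad2 was the member whose call was lost where 1 gene rose, in 7 settings.

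Because the oil libraries differed, the list was counted without each library. The number that fell was 23 without BN-Oil replicate 2, and lay between 23 and 27 over the 6 left-out libraries. Summed over the list, gene reads were 968, 1086 and 993 CPM in BN-P4, against 1367, 2271 and 1646 CPM in BN-Oil, so the lowest oil library lay above the highest progesterone library. In introns, 18 of 28 testable members fell and 1 rose, against 9.47% and 8.65% of all genes. Genes of antigen presentation gave 7 of 19 that fell (36.8%, against 11.8% of all genes), and the others were not called. Tap1, a peptide pump, had 18.6, 21.1 and 24 CPM in BN-P4, against 35.2, 65 and 47.7 CPM in BN-Oil (log2 fold change -1.21 ± 0.26, adjusted p = 0.005). Nlrc5, the activator of class I genes, had 5.33, 4.59 and 4.32 CPM in BN-P4, against 6.39, 16.2 and 12.1 CPM in BN-Oil (log2 fold change -1.28 ± 0.28, adjusted p = 0.005). RT1-S3, a class I gene, had 40.2, 63.2 and 55.2 CPM in BN-P4, against 118, 135 and 107 CPM in BN-Oil (log2 fold change -1.18 ± 0.21, adjusted p = 0.0014). Of 16 T and NK cell markers and 15 macrophage and dendritic cell markers, 0 were called by edgeR, and 3 and 0 had an unadjusted p below 0.05; DESeq2 called 0 in both lists, and limma voom called 2 in each. The T and NK markers summed to 53.8, 50 and 55.1 CPM in BN-P4, against 50.3, 68.7 and 58 CPM in BN-Oil, with the highest value in the same BN-Oil replicate 2. The part of these cells in the fall was not tested.

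**Figure D5:**
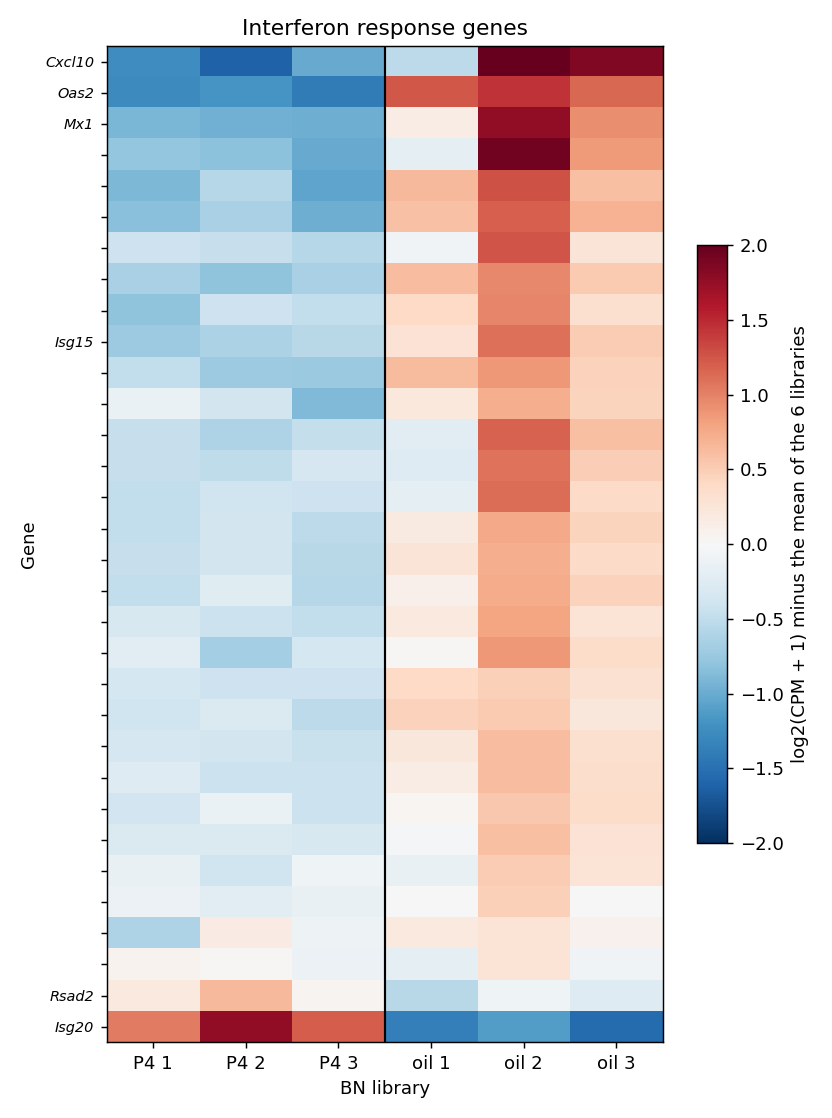
log2(CPM + 1) of 32 interferon response genes in the 6 BN libraries, minus each gene's mean over the 6, with the 3 progesterone libraries on the left and the 3 oil libraries on the right; the colour scale ends at -2 and 2. For most of the 26 genes that fell the progesterone columns are blue and BN-Oil replicate 2 is the reddest, and Isg20 and Rsad2 run the other way; the names are those of genes given in the text.

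Many promoters of this list hold GAAACT, a part of the interferon-stimulated response element, searched on both strands. It was in 16 of 22 windows (72.7%) and in 5 of 16 of the antigen presentation list (31.2%), against 16.6% of all windows. It was also in 5 of 11 windows of macrophage and dendritic cell markers (45.5%), of which 0 genes were called. The windows are shown for Cxcl10 and Mx1, which fell, and for Isg20, which rose and holds the same letters.
Cxcl10, chr14:15988980-15989045, plus strand: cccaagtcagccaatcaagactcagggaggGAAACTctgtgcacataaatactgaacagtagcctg
Mx1, chr11:50294617-50294682, minus strand: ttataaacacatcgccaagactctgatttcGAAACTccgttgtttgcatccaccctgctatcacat
Isg20, chr1:142239943-142240008, plus strand: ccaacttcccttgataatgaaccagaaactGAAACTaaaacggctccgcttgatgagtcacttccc
Capitals mark the match nearest the start, at -56, -46 and -86 from it.

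Markers of cell types were counted over 17 lists. Of 174 tested markers, 19 rose and 12 fell (10.9% and 6.9%, against 14% and 11.8% of all genes). Of 15 smooth muscle markers 0 were called by edgeR or DESeq2 and 0 had an unadjusted p below 0.05, while limma voom called 2. Their sum was 23829.7, 19154 and 23116 CPM in BN-P4, against 26268, 22408 and 21801 CPM in BN-Oil. Adipocyte markers gave 5 of 9 that rose, namely Cidec, Fabp4, Pck1, Adipoq and Lpl, and 1, Lipe, that fell. These are 55.6% and 11.1%, against 14% and 11.8% of all genes. Their levels were low apart from Lpl and Lipe, and Fabp4 overlapped between the groups: it had 3.13, 1.05 and 7.75 CPM in BN-P4, against 0.959, 1.05 and 0.573 CPM in BN-Oil (log2 fold change 2.19 ± 0.75, adjusted p = 0.049). Without BN-Oil replicates 1, 2 and 3 and BN-P4 replicates 1 and 3, 3 markers rose in each case. Lpl and Lipe are not particular to fat cells, and the part of fat cells in the results was not tested. Of 6 red cell markers 0 were called, with 0 at an unadjusted p below 0.05 and 0 by DESeq2 or limma voom, although their sum ran from 74.4 to 270.3 CPM within BN-P4 and from 73.2 to 116 CPM within BN-Oil.

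Most changes in BN had the direction seen in HSD: 98.8% of the 4045 genes called in BN had the same direction in HSD, against 82.2% of all tested genes. A test of the BN change minus the HSD change called 8 of 15697 genes (0.051%), and 1133 had an unadjusted p below 0.05. DESeq2 called 119. Arnt2, a partner of bHLH-PAS transcription factors, changed by -1.16 in BN and -2.77 in HSD (difference 1.61 ± 0.15, adjusted p = 0.002). Il17re, a receptor chain for interleukin-17C, changed by 1.24 in BN and -0.37 in HSD (difference 1.61 ± 0.17, adjusted p = 0.0041), so it rose in BN and did not rise in HSD. Clu, the secreted chaperone clusterin, and Emid1 fell less in BN: Clu changed by -0.70 in BN and -1.92 in HSD (difference 1.22 ± 0.19, adjusted p = 0.037) and Emid1 by -0.46 in BN and -1.43 in HSD (difference 0.96 ± 0.13, adjusted p = 0.023). Atp7b, a copper pump, and Slc25a15, the mitochondrial ornithine carrier, rose less in BN: Atp7b changed by 1.85 in BN and 4.08 in HSD (difference -2.22 ± 0.30, adjusted p = 0.023) and Slc25a15 by 1.96 in BN and 3.68 in HSD (difference -1.73 ± 0.26, adjusted p = 0.037). RT1-A2, a class I gene in a region that differs between strains, changed by -0.70 in BN and 1.62 in HSD (difference -2.32 ± 0.32, adjusted p = 0.023), a BN call lost in 3 alternative settings. Csrp2, a LIM protein of smooth muscle, changed by -0.37 in BN and 1.34 in HSD (difference -1.71 ± 0.26, adjusted p = 0.037) and was not called in BN alone (adjusted p = 0.16). The count was 2 without BN-Oil replicate 2 or BN-P4 replicate 3, 4 without BN-Oil replicate 3 or BN-P4 replicate 1 and 5 without BN-Oil replicate 1.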

How the data were processed

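Poly(A) RNA of whole uterus had been extracted with Trizol and made into libraries with a TruSeq kit, per the labels' protocols, and the strand of counting is not given in the sources used here. Reads were placed on Rnor_5.0, per the submitters' processing notes. The authors deposited, for each library, total, exon and intron read counts per gene and the RPKM of exon reads, and RPKM was used here only for marker levels. The members and gene lists were chosen with earlier results of these data known. Genes were kept with edgeR's filterByExpr, and counts were scaled by TMM factors; CPM are gene reads over the TMM-scaled library size, and exon and intron CPM use the same denominator. The 4 groups of 12 libraries were fitted together with edgeR's robust quasi-likelihood test (edgeR 4.0.16, R 4.3.3), separately for gene, exon and intron reads, and a model with a term for each library tested the exon change minus the intron change. Calls rest on p-values adjusted by Benjamini-Hochberg over every gene of a fit, with a threshold of 0.05, and standard errors were derived from the F statistic. The kept genes held 99.95% of gene reads, and the common biological coefficient of variation was 0.157. Replicate libraries differed by more than sampling noise (chi-square per degree of freedom 4.52 to 18.7), which cannot show that they are separate animals. Each library was counted as 1 sample. Alternatives were DESeq2 1.42.0, limma voom with quality weights (limma 3.58.1), other scalings, no filter, uniquely placed reads, BN libraries alone and each library left out. The scripts were tested on simulated data. Promoter motifs were chosen after counts of other, longer motifs, not reported here, had been seen. The results of some named genes are not reported here. Genes were named by fixed size rules within each list, and further members were named for their role after their values had been seen. The floor of 3 reads covers counting error only, since reads carry no molecular identifiers, while standard errors include the spread between libraries.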

Additional observations from a re-analysis of the deposited data

Results flagged for a closer look

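The change with progesterone differed between BN and HSD, by edgeR's test of the difference, in 8 genes. The differences on the log2 scale, BN minus HSD, were 1.61 for Arnt2, 1.61 for Il17re, 1.22 for Clu and 0.96 for Emid1. They were -2.32 for RT1-A2, -2.22 for Atp7b, -1.73 for Slc25a15 and -1.71 for Csrp2. Between 2 and 6 genes were called when 1 BN library was left out.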

How the results depend on the processing

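No paired analysis was possible because the replicate numbers follow the order of the accessions and pair no libraries. With 1 BN library left out, the calls ranged from 2606 to 2987 in gene reads, from 2119 to 2542 in exon reads, from 1545 to 1956 in intron reads, from 74 to 194 for the exon minus intron difference and from 2 to 6 for the strain difference. In gene reads limma voom with quality weights called 6749 genes. For the exon minus intron difference, scaling by gene reads gave 108 calls and fitting the 6 BN libraries alone 372. DESeq2 called 119 strain differences. Of 208 called genes among the 217 named by rule, 46 lost their call under at least 1 setting, 21 of them in a setting other than a left-out library. None of the 217 changed direction in gene reads. The balance over all genes did turn with the scaling, from 2196 that rose and 1849 that fell to 1759 and 2251 with upper-quartile factors. Depth limits the genes with at most 3 reads in every library of a group, which have no bounded fold here. The cause of these changes was not tested.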

Other observations

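Single genes of further pathways changed in BN uterus. Nrg1, a ligand of the EGF receptor family, had 0.405, 0.59 and 0.422 CPM in BN-P4, against 1.34, 2.46 and 1.47 CPM in BN-Oil (log2 fold change -1.89 ± 0.33, adjusted p = 0.0014), while its receptor Erbb3 rose (0.81 ± 0.18). Heyl, a target of Notch, had 91.7, 56 and 86.2 CPM in BN-P4, against 34.5, 29.2 and 24 CPM in BN-Oil (log2 fold change 1.41 ± 0.27, adjusted p = 0.0025). Heyl was the only 1 of 16 Notch genes that rose, and 1 fell (6.25% each, against 14% and 11.8% of all genes). On that list 3 genes lay above 0 (median -0.25). Apln, the vascular peptide apelin, had 2.72, 4.99 and 3.16 CPM in BN-P4, against 0.575, 0.844 and 1.15 CPM in BN-Oil (log2 fold change 2.09 ± 0.33, adjusted p = 0.00073). Among fibroblast growth factor genes, the ligand Fgf16 (-1.20 ± 0.26) and the inhibitor Spry1 (-1.01 ± 0.18) fell. The homeobox gene Hoxb5 fell (-0.75 ± 0.16). By list, 4 of 14 EGF family genes rose and 2 fell (28.6% and 14.3%). Of 29 vascular genes 3 rose and 3 fell (10.3% each). Of 20 fibroblast growth factor genes 0 rose and 2 fell (10%), and of 20 Hox genes 0 rose and 3 fell (15%). Adjusted p-values here and below are from edgeR.

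Of 33 genes for collagens and their assembly 5 rose and 3 fell, which is near the share over all genes (15.2% and 9.09%, against 14% and 11.8%). Col12a1, a fibril-associated collagen, had 722, 392 and 575 CPM in BN-P4, against 183, 178 and 180.0 CPM in BN-Oil (log2 fold change 1.64 ± 0.21, adjusted p = 0.00017), P4ha2, which hydroxylates collagen, rose (1.05 ± 0.13), and Lox, which crosslinks it, fell (-0.88 ± 0.17). At epithelial junctions, the claudins Cldn1 (1.10 ± 0.19) and Cldn23 (1.43 ± 0.26) rose and the cadherin Cdh16 fell (-1.46 ± 0.35). Msx1, a homeobox factor, had 143, 196 and 173 CPM in BN-P4, against 89.4, 78.3 and 72.4 CPM in BN-Oil (log2 fold change 1.09 ± 0.12, adjusted p = 5.2e-05), and Foxa2, a factor of the glands, had 11.1, 13.4 and 10.4 CPM in BN-P4, against 22.3, 19.3 and 18.9 CPM in BN-Oil (log2 fold change -0.79 ± 0.16, adjusted p = 0.0034). The chemokine Ccl28 rose (1.19 ± 0.29), and Pde5a, a phosphodiesterase of smooth muscle, fell (-0.63 ± 0.11).

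Among markers of other cells, Sdc1, a surface proteoglycan of plasma cells and of epithelium, rose (1.31 ± 0.17), and Tpsab1, a mast cell tryptase, rose (1.76 ± 0.39), at 0.753, 1.51 and 1.42 CPM in BN-P4, against 0.448, 0.211 and 0.41 CPM in BN-Oil. Hydin, a gene of motile cilia, fell (-1.96 ± 0.42). Each is a single member of a mixed list. Of 6 B and plasma cell markers 2 rose and 0 fell (33.3% and 0%, against 14% and 11.8% of all genes). Of 10 neutrophil and mast cell markers 1 rose and 1 fell (10% and 10%). Of 8 oviduct and ciliated cell markers 2 rose and 3 fell (25% and 37.5%). In each of these 3 lists 2 markers lay above 0, and the medians were -0.08, -0.29 and -0.37. In the promoter windows, ATTGGC was in 14 of 16 cholesterol synthesis and uptake genes (87.5%), against 14% of all windows.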
